A study of Arabidopsis thaliana with 12 samples.

Results

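The genes described here are the 37 loci of the Arabidopsis plastid genome that code for the plastid's own gene expression machinery and for a few other housekeeping functions, out of 38093 genes in the deposited tables. They were taken by their locus codes and not by any measured value: the 4 subunits of the plastid-encoded RNA polymerase (rpoA, rpoB, rpoC1, rpoC2), 12 loci for proteins of the small ribosomal subunit (rps), 11 for the large subunit (rpl), clpP, accD, 5 loci of ycf1 to ycf4, and matK, cemA and ccsA. Of these loci, 29 stand once in the genome, and 8 are the paired copies of ycf2, rpl2, rpl23 and rps7 in its inverted repeat. The tables carry locus codes, and the gene names came from the RefSeq annotation, whose plastid positions match the tables' for 33 members at both ends. For the others, ycf3 matched at one end, rps3 and rpl22 stand in 1 shared span, and matK lies within the trnK span.

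Transcripts were measured by RNA sequencing in Arabidopsis thaliana seedlings of wild-type Col-0 and of the mutants gun1-1, gun4-1 and gun5-1, all in the Col-0 background, with 3 libraries per genotype and 12 in all. All 4 genotypes, Col-0 included, were grown for 5 days on 5 µM norflurazon under continuous light of 100 µE. Norflurazon blocks carotenoid synthesis, so plastids bleach in the light, and no library without it was analysed here. The 3 mutated genes act in signalling from plastid to nucleus: GUN1 is a pentatricopeptide repeat protein of the plastid, GUN5 is CHLH, the H subunit of magnesium chelatase, and GUN4 activates that enzyme. The sample labels give whole seedlings and the series design gives leaf as the source of the RNA, and the mRNA was enriched on oligo(dT), which favours polyadenylated RNA. Most plastid RNA carries no long poly(A) tail, so the levels are those of the plastid RNA that came through this selection, and the share that did was not measured. The labels' protocol also names 100 µM piperonylic acid for gun5-1. No library title names it, and whether the gun5-1 libraries received it could not be checked. If they did, its effect cannot be told apart from that of the gun5-1 mutation.

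Each deposited table compares 1 mutant with Col-0 and gives, for each transcript, 1 FPKM value per genotype (fragments scaled by transcript length and by the fragments mapped in all) made by the authors' Cuffdiff from 3 libraries. No value per library was at hand, so the spread between the replicates of a member cannot be shown, and the depth is unknown. All FPKM values, log2 fold changes and q-values below are those of the authors' deposited tables, and each log2 fold change sets a mutant over the Col-0 value of its own table. Genes count as called, higher or lower, where the authors ran their test and its q-value was under 0.05. The SE of a log2 fold change was worked out from the authors' statistic and p-value. Col-0 stands at slightly different values in the 3 tables, at 1.07 times the first table's in the gun4-1 table and 0.984 times in the gun5-1 table. The median log2 fold change over all genes tested was -0.02 in gun1-1, -0.00 in gun4-1 and -0.02 in gun5-1. The transcripts of the mutated genes do not test the genotype labels, because a point mutation can leave a transcript in place. GUN1 had 137 FPKM in gun1-1 against 149 in Col-0 and GUN4 had 3.67 FPKM in gun4-1 against 2.21, and neither difference passed, while CHLH had 683 FPKM in gun5-1 against 189 and was called higher.

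Plastids of land plants transcribe their genome with polymerases of unlike origin. The plastid-encoded polymerase is of bacterial type, with a core of rpoA, rpoB, rpoC1 and rpoC2 products that needs a nuclear-encoded sigma factor, and it reads photosynthesis genes above all. The nuclear-encoded polymerase, a single-subunit enzyme of phage type, reads the rpoB operon, accD and ycf2, and takes part in reading clpP and many other housekeeping genes.

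The stretches before the start codons were searched for 2 short motifs. Promoters of the plastid-encoded polymerase resemble those of bacteria, with an upstream box near TTGACA and, closer to the start of the transcript, a box near TATAAT. The windows below run from 250 bases before to 50 bases after the first base of the coding sequence, 5′ to 3′ on the coding strand, from the RefSeq plastid sequence of assembly TAIR10.1, with exact TTGACA and TATAAT in capitals. They are shown for rpoB (ChrC:26280-26579, minus strand), clpP (ChrC:71833-72132, minus strand) and accD (ChrC:56825-57124, plus strand), 3 genes of the nuclear-polymerase group, and for ycf1 (ChrC:129195-129494, minus strand), the member whose change differed between gun4-1 and gun5-1.
rpoB: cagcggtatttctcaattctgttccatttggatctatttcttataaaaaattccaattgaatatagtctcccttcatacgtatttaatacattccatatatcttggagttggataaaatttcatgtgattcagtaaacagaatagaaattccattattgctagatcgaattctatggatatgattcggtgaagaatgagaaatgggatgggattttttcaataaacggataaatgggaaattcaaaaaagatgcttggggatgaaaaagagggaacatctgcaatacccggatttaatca
clpP: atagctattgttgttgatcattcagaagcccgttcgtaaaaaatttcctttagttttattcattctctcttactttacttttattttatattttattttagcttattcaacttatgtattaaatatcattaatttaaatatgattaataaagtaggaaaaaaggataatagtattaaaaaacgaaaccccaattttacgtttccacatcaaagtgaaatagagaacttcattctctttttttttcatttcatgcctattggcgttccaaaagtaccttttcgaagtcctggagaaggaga
accD: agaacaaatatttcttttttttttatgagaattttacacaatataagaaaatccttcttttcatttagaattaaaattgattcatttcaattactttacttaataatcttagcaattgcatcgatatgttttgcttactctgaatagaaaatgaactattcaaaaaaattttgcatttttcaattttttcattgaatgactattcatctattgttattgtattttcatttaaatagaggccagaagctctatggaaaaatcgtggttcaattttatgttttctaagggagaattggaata
ycf1: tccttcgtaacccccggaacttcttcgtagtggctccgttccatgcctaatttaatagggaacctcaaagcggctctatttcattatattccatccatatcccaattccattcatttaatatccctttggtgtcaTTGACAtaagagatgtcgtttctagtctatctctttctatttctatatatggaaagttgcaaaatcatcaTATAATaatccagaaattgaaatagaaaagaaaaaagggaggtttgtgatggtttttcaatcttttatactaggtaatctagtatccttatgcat

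The rpoB, clpP and accD windows hold no exact match to either box, and the ycf1 window holds both. On the coding strand, TATAAT was found in 0 of the 7 windows of the nuclear-polymerase group, in 10 of the 30 windows of the other members (33.3%), and in 20 of 83 windows of plastid protein-coding genes (24.1%). TTGACA was found in 0 of 7, in 3 of 30 (10%) and in 9 of 83 (10.8%). With both strands searched, TATAAT was in 0 of 7, 14 of 30 (46.7%) and 36 of 83 windows (43.4%), and TTGACA in 0 of 7, 6 of 30 (20%) and 13 of 83 (15.7%). The 7 windows include both identical copies of ycf2, and the 30 include both copies of rpl2, rpl23 and rps7. Both rps7 windows are among the 10 with TATAAT, and both rpl2 windows among the 6 with TTGACA on either strand. A window within an operon holds the end of the gene before it, and true boxes may differ from these letters. No window held the boxes 15 to 21 bases apart on the coding strand. A match describes letters only.

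Across the 37 members, the first comparison, of gun1-1 with Col-0, gave lower levels: of 27 members tested, 16 were called lower and 0 higher by Cuffdiff, and 11 did not pass. At an unadjusted p under 0.05, 21 were lower and 0 higher. The share of all genes at an unadjusted threshold was not worked out, here or for the later unadjusted counts. Over all 18788 genes tested in that table, 15.0% were called lower and 18.7% higher. The median log2 fold change of the 31 members with a finite value was -1.64. In gun4-1, of 28 members tested, 21 were called higher and 0 lower, where 8.21% of all genes tested were called higher and 5.92% lower, and the median of 32 members was 0.99. At an unadjusted p under 0.05, Cuffdiff had 23 higher and 0 lower in gun4-1, and 26 higher and 0 lower in gun5-1. In gun5-1, of 29 members tested, 24 were called higher and 0 lower, against 16.4% and 13.1% of all genes tested, and the median of 33 members was 1.41. In whole seedlings or leaves, changes in the number of plastids or plastid-rich cells and in RNA per plastid cannot be told apart. Nor can either be told apart from a change in the share of plastid RNA that passed the oligo(dT) selection. This holds for losses and gains alike.

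**Figure D1:**
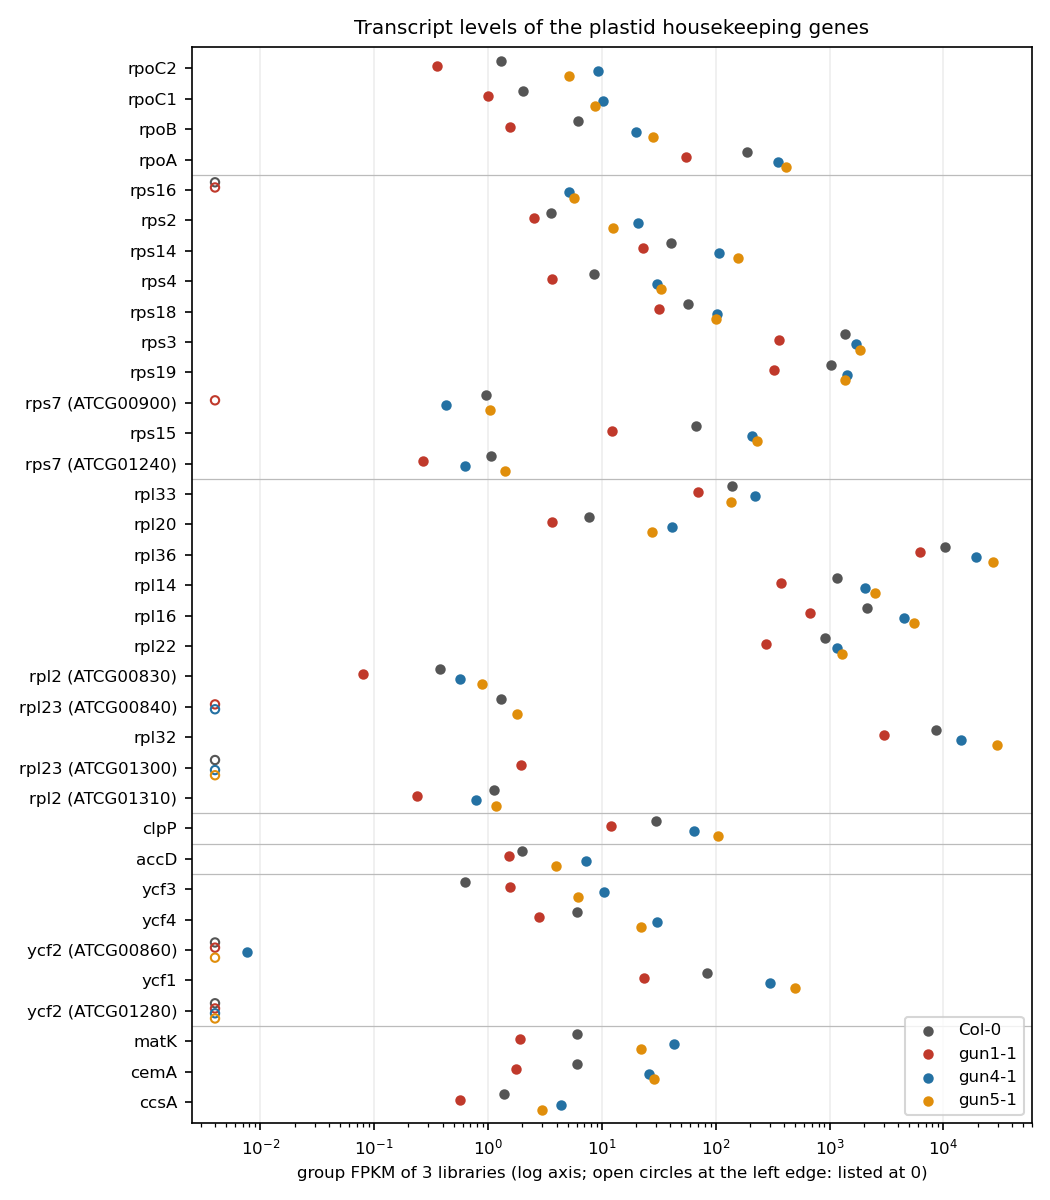
Group FPKM (log axis) of 35 members, grouped by role, with 1 point per genotype for the value over 3 libraries; Col-0 is from the gun1-1 table and open circles at the left edge stand for values listed at 0. The gun1-1 point lies left of Col-0 for most genes and the gun4-1 and gun5-1 points right of it, while the 8 repeat copies lie at or under 1.94 FPKM.

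All 4 polymerase core subunits fell in gun1-1 and rose in gun4-1 and gun5-1. The rpoB product (ATCG00190) is the beta subunit, which forms the catalytic centre together with the product of rpoC1. The rpoB transcript had 6.12 FPKM in Col-0, 1.55 in gun1-1, 20.0 in gun4-1 and 28.0 in gun5-1. Its log2 fold changes were -1.98 (SE 0.32), 1.60 (SE 0.21) and 2.22 (SE 0.21), each past the threshold. The next gene of the operon, rpoC1 (ATCG00180), which codes for the beta prime subunit, had 2.01 FPKM in Col-0, 0.992 in gun1-1, 10.2 in gun4-1 and 8.67 in gun5-1, with log2 fold changes of -1.02 (SE 0.51), 2.24 (SE 0.34) and 2.13 (SE 0.37). The last, rpoC2 (ATCG00170), which codes for the beta double prime subunit, had 1.29 FPKM in Col-0, 0.356 in gun1-1, 9.17 in gun4-1 and 5.18 in gun5-1, with log2 fold changes of -1.86 (SE 0.53), 2.72 (SE 0.30) and 2.03 (SE 0.32). The level per length dropped from rpoB to rpoC1 to rpoC2, the order of transcription, in all 4 genotypes.

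The alpha subunit gene rpoA (ATCG00740) lies elsewhere, at the end of a ribosomal protein operon, and its level was far above the other core subunits. It had 187 FPKM in Col-0, 54.4 in gun1-1, 352 in gun4-1 and 415 in gun5-1. Its log2 fold changes were -1.78 (SE 0.18), 0.81 (SE 0.17) and 1.17 (SE 0.17), all past the threshold. The rpoA to rpoB ratio of FPKM was 30.6 in Col-0, 35.1 in gun1-1, 17.7 in gun4-1 and 14.8 in gun5-1. The rpoA to rpoC2 ratio was 145 in Col-0, 153 in gun1-1, 38.4 in gun4-1 and 80.2 in gun5-1. These ratios compare levels within a genotype and were not tested.

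The largest block of ribosomal genes is an operon that starts in the inverted repeat with rpl23 and rpl2 and ends with rpoA. Among its single-copy genes, the 7 described here are, in order, rps19, rpl22, rps3, rpl16, rpl14, rpl36 and rpoA, with 187 to 10284 FPKM in Col-0. In gun1-1, 6 of the 7 were called lower, with a median log2 fold change of -1.67. In gun4-1, 4 were called higher with a median of 0.71, and in gun5-1, 6 were called higher with a median of 1.14. The first genes of the single-copy stretch had smaller log2 fold changes in gun4-1 and gun5-1 than those after them, a step that was not tested. For rps19, rpl22 and rps3 the log2 fold changes ran from 0.24 to 0.38 in gun4-1 and from 0.43 to 0.52 in gun5-1, while for rpl16, rpl14, rpl36 and rpoA they ran from 0.71 to 0.97 and from 1.14 to 1.42. In gun1-1 no such step was seen, with medians of -1.73 and -1.65 for these groups.

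Among these, rps19 (ATCG00820, small-subunit protein S19) had 1028 FPKM in Col-0, 324 in gun1-1, 1432 in gun4-1 and 1367 in gun5-1, and passed in all 3 mutants. The rps3 gene (ATCG00800, protein S3) had 1358, 363, 1722 and 1842 FPKM in the same order, and the gain in gun4-1 did not pass (log2 fold change 0.24, SE 0.21). The overlapping gene rpl22 (ATCG00810, protein L22) had 919, 277, 1162 and 1297 FPKM, and its gain in gun4-1 did not pass either (0.24, SE 0.35). Because rps3 and rpl22 share bases and stand in 1 span of the tables, the split of fragments between them is uncertain.

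The rpl16 gene (ATCG00790, protein L16), which carries an intron, had 2128 FPKM in Col-0, 670 in gun1-1, 4477 in gun4-1 and 5573 in gun5-1. Its log2 fold changes were -1.67 (SE 0.17), 0.97 (SE 0.17) and 1.41 (SE 0.17). The next gene, rpl14 (ATCG00780, protein L14), also passed in each mutant, and its levels were 1168 FPKM in Col-0, 375 in gun1-1, 2046 in gun4-1 and 2532 in gun5-1. The rpl36 gene (ATCG00760), 114 bases long, was listed at 10284 FPKM in Col-0, 6245 in gun1-1, 19470 in gun4-1 and 27010 in gun5-1, and none of its changes passed, with SE from 0.66 to 1.08. Division by so short a length makes its level and that of rpl32 less certain than those of longer genes.

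**Figure D2:**
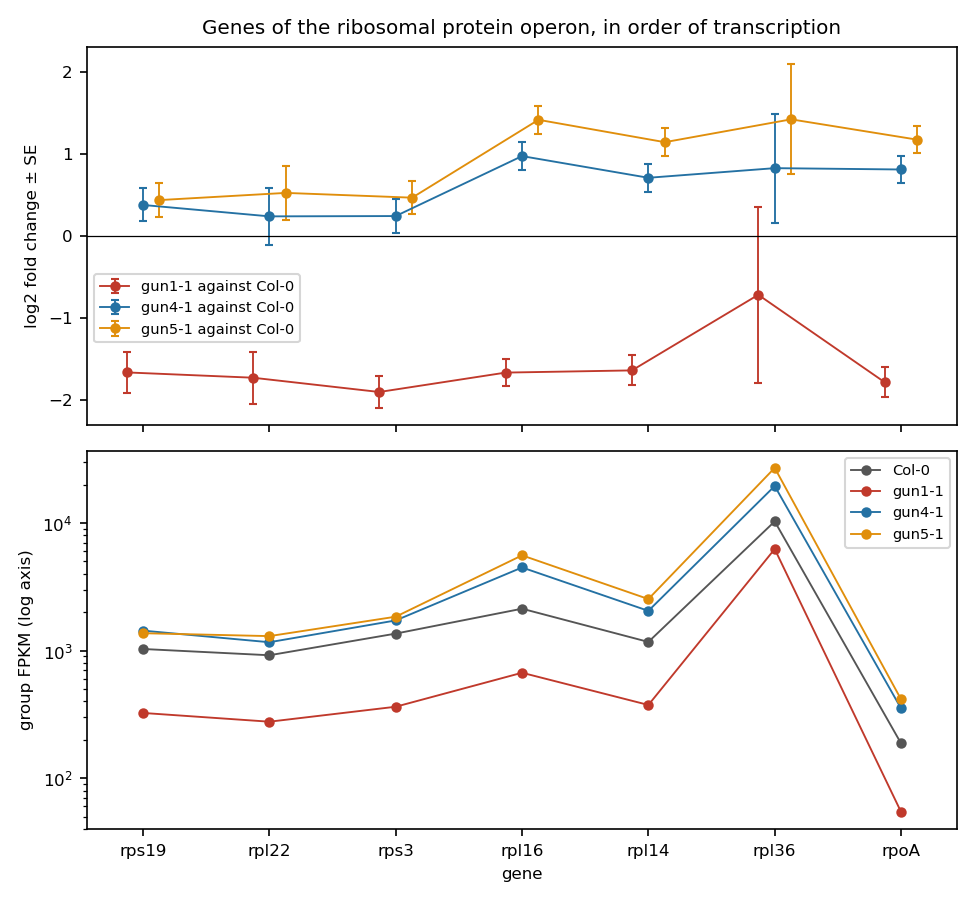
The 7 genes described from the ribosomal protein operon, in order of transcription, with the log2 fold change ± SE in each mutant above and the group FPKM (log axis) in each genotype below. In gun4-1 and gun5-1 the changes of rps19, rpl22 and rps3 stay at or under 0.52 and those from rpl16 on lie at 0.71 or above, and in gun1-1 all 7 lie below 0.

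Several ribosomal genes outside that operon changed by larger factors in gun4-1 and gun5-1. The rps2 gene (ATCG00160, protein S2) had 3.57 FPKM in Col-0, 2.56 in gun1-1, 20.6 in gun4-1 and 12.6 in gun5-1. It rose by 2.42 (SE 0.48) and 1.84 (SE 0.54) on the log2 scale in gun4-1 and gun5-1, and its value of -0.48 (SE 0.66) in gun1-1 did not pass. The rps4 gene (ATCG00380, protein S4, which starts assembly of the small subunit in bacteria) passed in all 3 mutants, with 8.52 FPKM in Col-0, 3.64 in gun1-1, 30.2 in gun4-1 and 33.1 in gun5-1. The rps14 gene (ATCG00330, protein S14) had 40.7, 22.9, 107 and 156 FPKM, and rps15 (ATCG01120, protein S15) had 66.7, 12.3, 206 and 231 FPKM in the same order. Both rose in gun4-1 and gun5-1, and neither passed in gun1-1. The value of rps15 in gun1-1, -2.44, was the lowest of the 31 members with a finite change, and its SE was 1.40.

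The rpl20 gene (ATCG00660, protein L20) had 7.78 FPKM in Col-0, 3.66 in gun1-1, 41.1 in gun4-1 and 27.8 in gun5-1, and rose in gun4-1 by 2.29 (SE 0.59) and in gun5-1 by 1.86 (SE 0.60) on the log2 scale. The rpl33 and rps18 genes lie side by side on the other strand from it. The rps18 transcript (ATCG00650, protein S18) had 57.0, 32.0, 102 and 99.6 FPKM and rose in gun5-1 by 0.83 (SE 0.47). Its value in gun4-1 stood at the threshold, at 0.74 (SE 0.44) with a q-value of 0.0501 by the authors' Cuffdiff test. The rpl33 transcript (ATCG00640, protein L33, 201 bases long) had 138, 70.0, 220 and 135 FPKM and passed in no mutant. The rpl32 gene (ATCG01020, protein L32, 159 bases long) was listed at 8601 FPKM in Col-0, 3015 in gun1-1, 14308 in gun4-1 and 29697 in gun5-1, and rose in gun5-1 by 1.81 (SE 0.56). The intron-bearing rps16 gene (ATCG00050, protein S16) was listed at 0 in Col-0 and gun1-1 and at 5.11 FPKM in gun4-1 and 5.68 in gun5-1, and the authors' test was not run on it.

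Over both subunits, 9 small-subunit loci were tested in gun1-1 and 5 were called lower, while 7 of 9 were called higher in gun4-1 and 9 of 10 in gun5-1. Of the large subunit, 3 of 7 tested loci were called lower in gun1-1, 3 of 7 higher in gun4-1 and 5 of 7 higher in gun5-1. The large-subunit loci that did not pass include rpl36, rpl32 and rpl33 in gun1-1 and gun4-1, which are also the shortest genes of the set.

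The 8 copies in the inverted repeat gave almost no signal. The copies of each pair are identical in the RefSeq sequence, with 0 differences over 6885 bases in ycf2, 1507 in rpl2, 468 in rps7 and 282 in rpl23. None had more than 1.94 FPKM in any genotype, and ycf2, which codes for part of the motor that pulls proteins into the plastid and is the longest gene of the genome, was listed at 0 in all groups but gun4-1, where 1 copy (ATCG00860) had 0.00767 FPKM. In the same operon, rps19 had 1028 FPKM in Col-0 next to rpl2 (ATCG00830) at 0.377 and rpl23 (ATCG00840) at 1.30. The second copies, rpl2 (ATCG01310) and rpl23 (ATCG01300), had 1.12 FPKM and 0 in Col-0. Of the 8, the authors' test was run on rps7 (ATCG01240) in gun5-1 alone, where it had 1.40 FPKM against 1.05 and did not pass. The ndhB copy ATCG00890, the neighbour of rps7 (ATCG00900) in the repeat, was also listed at 0 in every genotype. The other ndhB copy (ATCG01250) was not read out. How the authors' alignment treated fragments that map equally well to both copies is not given in the sources used here, and its part in these low values was not tested.

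The proteolytic subunit of the plastid Clp protease, clpP (ATCG00670), had 29.8 FPKM in Col-0, 12.0 in gun1-1, 64.5 in gun4-1 and 105 in gun5-1. It fell in gun1-1 by 1.31 on the log2 scale (SE 0.36) and rose in gun4-1 by 1.01 (SE 0.26) and in gun5-1 by 1.84 (SE 0.25). The carboxyltransferase beta subunit of plastid acetyl-CoA carboxylase, which makes malonyl-CoA for fatty acid synthesis, is coded by accD (ATCG00500). It had 1.97 FPKM in Col-0, 1.54 in gun1-1, 7.33 in gun4-1 and 3.96 in gun5-1. It rose in gun4-1 by 1.79 (SE 0.42) and in gun5-1 by 1.03 (SE 0.48), and its value of -0.36 (SE 0.55) in gun1-1 did not pass. Downstream of accD on the same strand lie psaI, ycf4, cemA and petA. The photosystem I assembly factor ycf4 (ATCG00520) had 6.03 FPKM in Col-0, 2.79 in gun1-1, 30.6 in gun4-1 and 22.0 in gun5-1. The envelope protein gene cemA (ATCG00530) had 6.02, 1.76, 25.9 and 28.8 FPKM, and passed in all 3 mutants, as did petA, the gene of cytochrome f, with 4.71, 2.59, 24.4 and 20.2 FPKM.

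The ycf1 gene (ATCG01130), which codes for Tic214 of the inner envelope import complex, had 84.4 FPKM in Col-0, 23.4 in gun1-1, 302 in gun4-1 and 501 in gun5-1. Its log2 fold changes were -1.85 (SE 0.17), 1.73 (SE 0.18) and 2.59 (SE 0.18). The largest gain among members that passed in gun4-1 was shared by rpoC2 and matK, both 2.72, and in gun5-1 it was that of ycf1. The matK gene (ATCG00040), which codes for the plastid's only intron maturase and lies in the intron of trnK, had 6.06 FPKM in Col-0, 1.89 in gun1-1, 42.9 in gun4-1 and 22.1 in gun5-1, and passed in each. The cytochrome c assembly gene ccsA (ATCG01040) had 1.37, 0.565, 4.37 and 2.98 FPKM and rose in gun4-1 by 1.56 (SE 0.64), and its values of -1.28 (SE 1.12) in gun1-1 and 1.14 (SE 0.72) in gun5-1 did not pass. The photosystem I assembly factor ycf3 (ATCG00360), which has introns, was listed at 0.622, 1.56, 10.5 and 6.21 FPKM. Its values of 3.97 (SE 3.40) in gun4-1 and 3.34 (SE 2.73) in gun5-1 did not pass, and it was the sole member with a value above Col-0 in gun1-1 among the 31 with a finite change there.

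**Figure D3:**
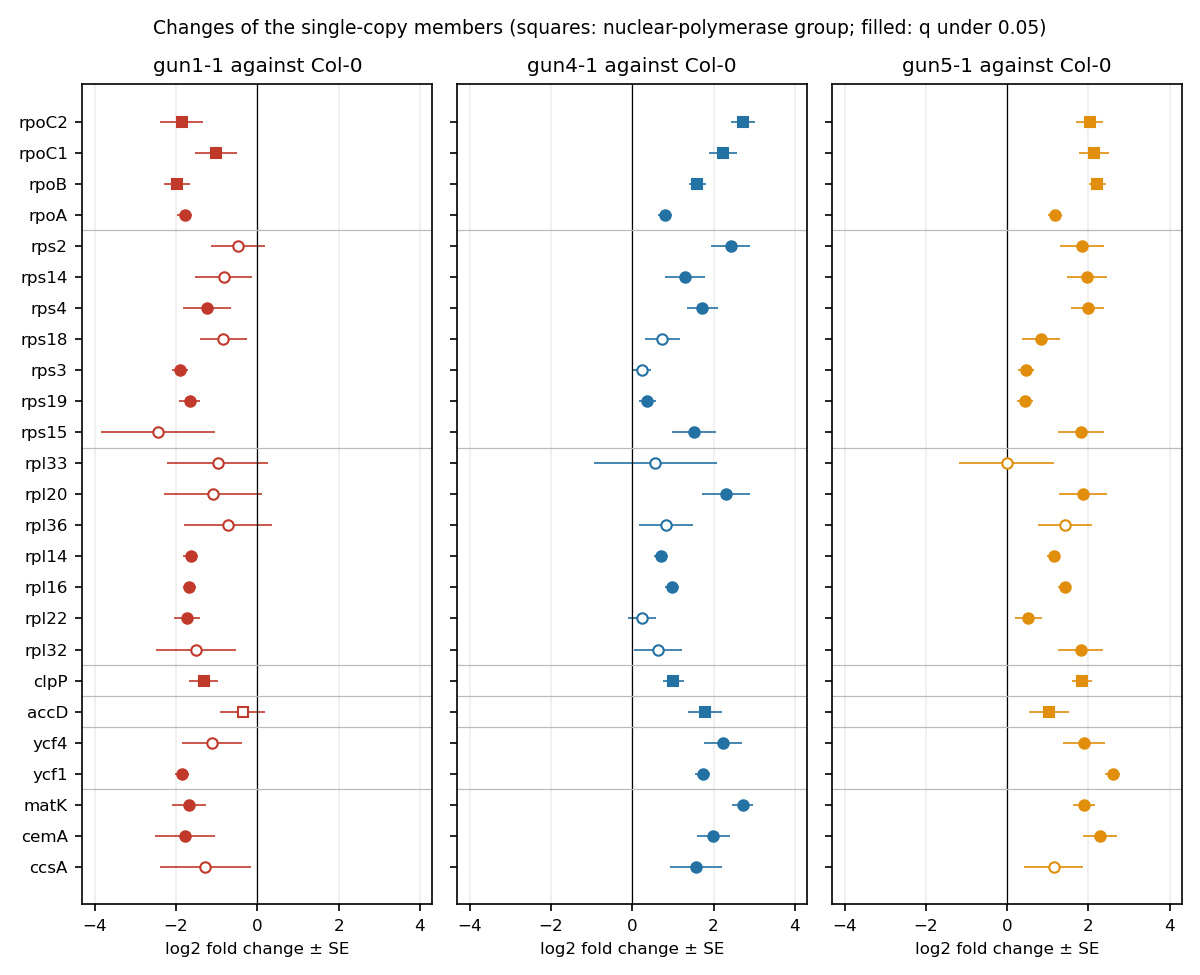
Log2 fold change ± SE of 25 single-copy members with a tested change in every mutant, grouped by role, with squares for the nuclear-polymerase group and filled symbols for q under 0.05. All values lie below 0 in gun1-1 and above 0 in gun4-1, and in gun5-1 rpl33 at -0.01 alone does not lie above it.

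The genes read by the nuclear-encoded polymerase were then set beside the other members. That group is rpoB, rpoC1, rpoC2, accD, clpP and both copies of ycf2, and its 5 loci outside the repeat were tested in every mutant. In gun1-1, 4 of the 5 were called lower, with a median log2 fold change of -1.31, and of the other 30 members 12 of 22 tested were called lower, with a median of -1.65. In gun4-1, 5 of 5 were called higher with a median of 1.79, against 16 of 23 tested and a median of 0.81. In gun5-1, 5 of 5 were called higher with a median of 2.03, against 19 of 24 tested and 1.21. The medians of the groups thus differed by 0.34, 0.98 and 0.82. These medians are over loci with a finite value, which among the other members include repeat copies that were not tested. Over tested loci alone, the other members had medians of -1.62, 0.97 and 1.42 in gun1-1, gun4-1 and gun5-1. The groups then differed by 0.31, 0.82 and 0.61. No test was made, since genes of 1 genome in the same libraries are not replicates.

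The ribosomal protein operon makes up much of the other group and includes the untested repeat copies of rpl2 and rpl23. Without that operon, the other members had medians of -1.23 in gun1-1, 1.64 in gun4-1 and 1.85 in gun5-1, a choice made after the data were seen. The nuclear-polymerase group then differed from them by -0.082, 0.14 and 0.18, and no spread of a difference of medians was at hand. Within the nuclear-polymerase group the members ranged from -1.98 to -0.36 in gun1-1, from 1.01 to 2.72 in gun4-1 and from 1.03 to 2.22 in gun5-1. Every tested member of this group had the sign of the other members' median in each mutant.

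**Figure D4:**
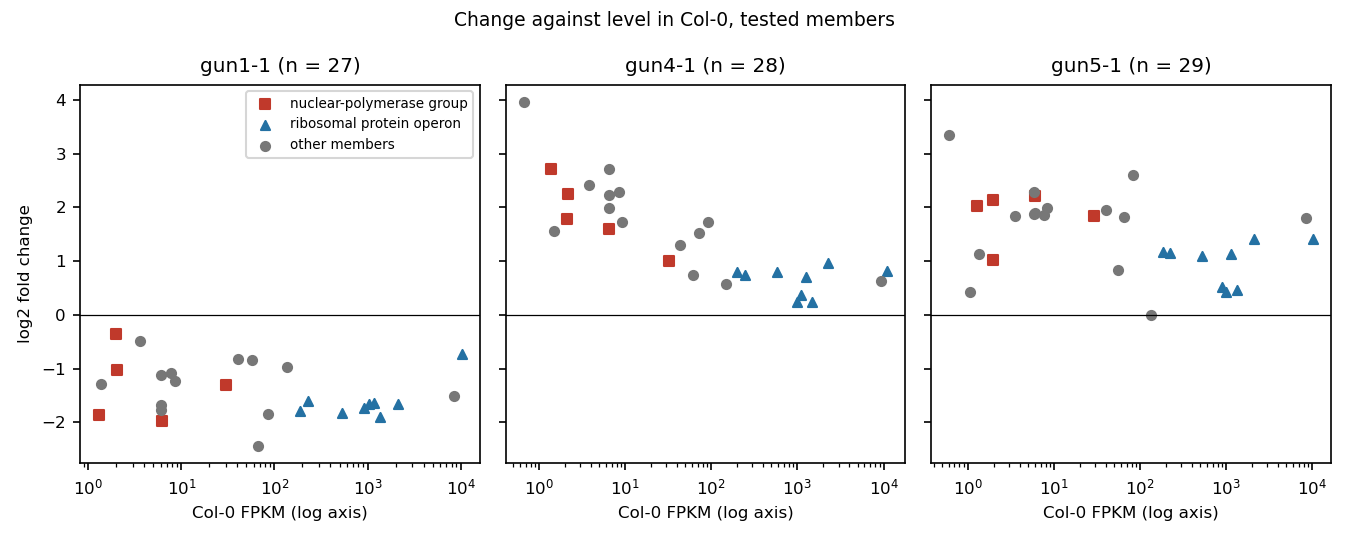
Log2 fold change of each tested member against its Col-0 FPKM (log axis), with 27, 28 and 29 members in gun1-1, gun4-1 and gun5-1; squares mark the nuclear-polymerase group and triangles the ribosomal protein operon. In gun4-1 members at low Col-0 levels show the larger gains (Pearson r = -0.82), and in gun1-1 the points form no such slope (r = -0.24).

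The size of the change went with the level of the gene in gun4-1. Across the 28 tested members, the log2 fold change had a Pearson r of -0.82 and a Spearman rho of -0.84 with the log2 FPKM in Col-0. Outside the ribosomal protein operon r was -0.75 over 19 members. In gun5-1, r was -0.42 over 29 members and -0.14 over 20 outside the operon, and in gun1-1 it was -0.24 over 27. With the mean of both groups' log2 levels in place of the Col-0 level, r was -0.78, -0.34 and -0.18 in gun4-1, gun5-1 and gun1-1. These are descriptions across genes that share libraries and operons, and the Col-0 level enters both axes.

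Differences between mutants were tested as the difference of the log2 fold changes over their combined SE, two-sided, with Benjamini-Hochberg adjustment over all genes tested in both tables. The tables share the Col-0 libraries, which makes the combined SE too large. Between gun4-1 and gun1-1, 19 of 27 members had a higher fold change in gun4-1 and 0 a lower one, where 2.38% of all genes passed higher and 3.81% lower. The median difference was 2.63 on the log2 scale, and rpoC2 differed most, by 4.58 (SE 0.61). At an unadjusted p under 0.05, 24 members were higher and 0 lower, and between gun5-1 and gun1-1 23 were higher and 0 lower. The share of all genes at that unadjusted threshold was not worked out. Between gun5-1 and gun1-1, 17 of 27 passed higher and 0 lower, against 0.852% and 0.858% of all genes. The median difference was 2.95, with ycf1 at 4.44 (SE 0.25) and rpoB at 4.20 (SE 0.38). The gene accD passed in the first of these tests (2.15, SE 0.69) and not in the second (1.39, SE 0.73).

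Between gun5-1 and gun4-1, 1 of 28 members passed, where 2.07% of all genes passed higher and 0.720% lower. That member was ycf1, whose log2 fold change was 0.86 higher in gun5-1 (SE 0.26). The 28 differences ran from -0.83 (matK, SE 0.38) to 1.18 (rpl32, SE 0.81), with a median of 0.27. For clpP the difference was 0.83 (SE 0.36) and for rpoB 0.62 (SE 0.29), with gun5-1 the higher, and for rpoC2 it was -0.70 (SE 0.44), with gun4-1 the higher, and none of these passed. With SE of this size, a miss does not show that the mutants act alike on these genes.

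Plastid-encoded photosynthesis and NDH genes had median changes of the same sign as the members in each mutant. Of the plastid-encoded photosynthesis genes, 17 of 21 tested were called lower in gun1-1, 15 of 25 higher in gun4-1 and 16 of 24 higher in gun5-1. Their median log2 fold changes were -1.78, 1.74 and 2.07, over the 17, 22 and 22 genes with a finite value. Of these, 4 lay below 0 in gun4-1 and 1 in gun5-1. Of the genes of the plastid NDH complex, which takes part in cyclic electron flow, 5 of 8 tested were lower in gun1-1, 5 of 9 higher in gun4-1 and 8 of 9 higher in gun5-1. In gun4-1, 2 of the 9 NDH genes with a finite value lay below 0. The genes beside a member that are named next had, where tested, the sign of the members' median. The photosystem I core genes psaA and psaB, upstream of rps14, changed by -2.16 (SE 0.73) and -2.09 (SE 0.87) in gun1-1 and by 2.85 (SE 0.36) and 3.07 (SE 0.39) in gun4-1, where rps14 itself changed by 1.29 (SE 0.49). The ATP synthase gene atpI, next to rps2, fell by 1.91 (SE 0.56) in gun1-1 and rose by 1.30 (SE 0.34) in gun4-1. The ndhD gene, which lies near ccsA on the opposite strand, changed by -1.53 (SE 0.61), 2.11 (SE 0.37) and 1.94 (SE 0.40) in gun1-1, gun4-1 and gun5-1. The psaI gene was listed at 0 in Col-0, gun1-1 and gun5-1 and at 1013 FPKM in gun4-1 and was untested.

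None of the tested nuclear partners of the ribosomal protein genes, clpP and accD was called lower in gun1-1. Of 19 nuclear genes for plastid ribosomal proteins, 18 were tested, and 18 were called higher in gun1-1, 16 in gun4-1 and 18 in gun5-1, with median log2 fold changes of 0.73, 0.49 and 1.13. The small-subunit gene PRPS20 (AT3G15190) rose most in each, from 208 to 547 FPKM in gun1-1 by 1.39 (SE 0.18), and by 0.83 (SE 0.19) in gun4-1 and 1.63 (SE 0.18) in gun5-1. In gun1-1, 18 of 18 tested nuclear genes for plastid ribosomal proteins were called higher while 8 of 16 tested plastid loci for ribosomal proteins were called lower and 0 higher. Of the 8 nuclear genes of the Clp core, 7 were called higher in gun1-1, 1 in gun4-1 and 8 in gun5-1, led by CLPP3 (AT1G66670) in gun1-1 at 0.86 (SE 0.17) and by CLPP4 (AT5G45390) in gun4-1 at 0.40 (SE 0.17) and gun5-1 at 0.93 (SE 0.17). Of the 4 nuclear subunits of plastid acetyl-CoA carboxylase, 2, 4 and 3 were called higher. Over all genes tested, 18.7% were called higher in gun1-1, 8.21% in gun4-1 and 16.4% in gun5-1. The biotin carboxyl carrier BCCP1 (AT5G16390) led in gun1-1 at 1.38 (SE 0.18) and in gun4-1 at 0.77 (SE 0.18), and the carboxyltransferase alpha subunit CAC3 (AT2G38040) in gun5-1 at 1.09 (SE 0.21).

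**Figure D5:**
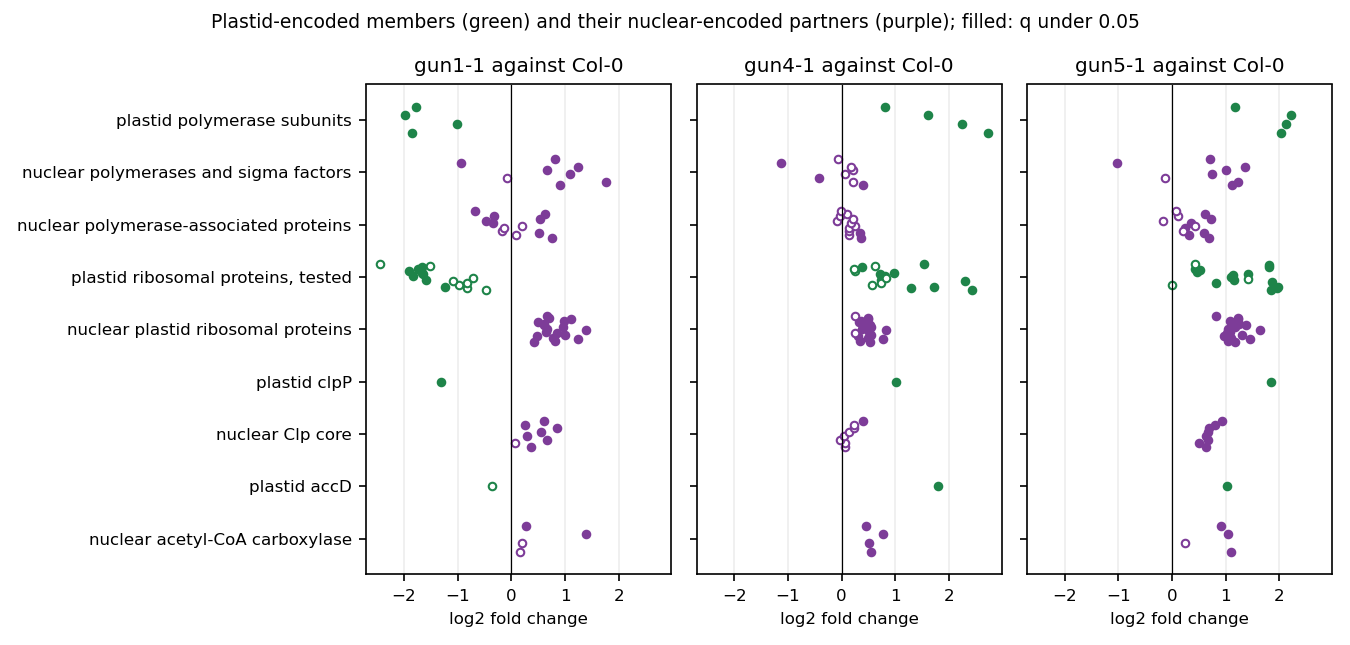
Log2 fold changes of tested plastid-encoded members (green) and of the nuclear-encoded genes whose products work with them (purple) in each mutant, with filled symbols for q under 0.05. In gun1-1 the plastid ribosomal protein genes lie below 0 and the 18 tested nuclear ones above it, while in gun4-1 both lie above 0.

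The nuclear genes that serve plastid transcription split by kind. RPOTP (AT2G24120), the phage-type polymerase of plastids, stood at 25.3 FPKM in Col-0, 24.0 in gun1-1, 20.2 in gun4-1 and 22.9 in gun5-1. It fell in gun4-1 by 0.43 (SE 0.19), and its values of -0.08 (SE 0.18) in gun1-1 and -0.12 (SE 0.19) in gun5-1 did not pass. RPOTMP (AT5G15700), which works in plastids and mitochondria, had 5.41 FPKM in Col-0 and 2.83, 2.65 and 2.61 in the mutants. It fell in all 3, by 0.93 (SE 0.32), 1.13 (SE 0.35) and 1.03 (SE 0.33). The 6 sigma factor genes were all called higher in gun1-1 and in gun5-1, and SIG2 alone in gun4-1, by 0.40 (SE 0.24). SIG1 (AT1G64860) rose most in gun1-1, from 34.4 to 117 FPKM by 1.77 (SE 0.18), and SIG4 (AT5G13730) most in gun5-1, by 1.35 (SE 0.24). In gun1-1 the plastid genes for the polymerase core fell while all 6 nuclear genes for its sigma factors rose.

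Of the 12 nuclear genes for proteins bound to the plastid-encoded polymerase, 4 were called higher and 4 lower in gun1-1, 2 higher and 0 lower in gun4-1, and 7 higher and 0 lower in gun5-1. Over all genes tested, 18.7% were called higher and 15.0% lower in gun1-1, 8.21% and 5.92% in gun4-1, and 16.4% and 13.1% in gun5-1. In gun1-1, PTAC6 (AT1G21600) rose by 0.75 (SE 0.19) and the superoxide dismutase FSD2 (AT5G51100) fell by 0.68 (SE 0.25). PTAC6 also led in gun4-1, at 0.36 (SE 0.19), and PTAC14 (AT4G20130) in gun5-1, at 0.72 (SE 0.32).

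Markers of tissue make-up also moved. The summed level of 5 root and root hair markers was 70.3 FPKM in Col-0 and 51.2, 55.5 and 47.9 FPKM in gun1-1, gun4-1 and gun5-1, with 4, 3 and 3 of 5 called lower. The summed level of 4 stomatal lineage markers was 28.0 FPKM in Col-0 and 47.0, 33.4 and 37.7 FPKM in the mutants, with 3, 1 and 2 of 4 called higher. Of all genes tested, 15.0%, 5.92% and 13.1% were called lower in gun1-1, gun4-1 and gun5-1, and 18.7%, 8.21% and 16.4% higher. Both Col-0 sums are from the comparison with gun1-1, and Col-0 stood 1.07 times higher in that with gun4-1. In gun4-1, 3 of the 4 stomatal markers lay above Col-0. The remaining 1 lay below it, at 13.6 FPKM against 16.8, and did not pass. All 9 markers were detected in every genotype, and the share of each tissue in the samples was not measured. The part of tissue make-up in the members' changes was not tested.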

How the data were processed

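RNA sequencing compared 4 genotypes of 5-day-old seedlings on norflurazon, 3 libraries each. Reads were processed with Trimmomatic, TopHat, Cufflinks and Cuffdiff, per the submitters' processing notes; the sources used here give no versions, genome build or annotation. The authors deposited group FPKM values, log2 fold changes, the Cuffdiff statistic (a signed score), p-values and q-values, the last adjusted by the authors over all tested transcripts. Depth per library is unknown.

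From these, the transcript of highest mean FPKM stood for each gene, and each member has 1 transcript. A call needed status OK and q under 0.05. The SE was the larger of the ratio of log2 fold change to statistic and, where p was above the smallest listed, 5e-05, its ratio to the normal quantile of p. The authors' p-value can thus be smaller than a normal curve gives for the SE printed beside a call. For accD in gun5-1, the change was 1.03 (SE 0.48) and the authors' Cuffdiff p-value was 0.00075. Differences between mutants were tested by a normal test with Benjamini-Hochberg adjustment, tested on simulated data. Positions of 115 of 134 plastid codes equal those of RefSeq TAIR10.1 at both ends, and sequences and names were read there. Python 3.11.15, pandas 2.3.3, numpy 2.4.6, scipy 1.17.1 and matplotlib 3.10.9 were used. Named genes are all members, the called gene of each nuclear list with the largest change each way, RPOTP, RPOTMP, neighbouring genes and the mutated genes. Where a list had no call in a direction, none is named. The members and lists were chosen with earlier results of these data known. The series design calls the 3 samples of a genotype biological replicates; nothing names separate cultures, so p-values may measure technical spread only. Alternatives tried were other thresholds, pseudocounts, gene groups and SE. Counts and medians over all members include 2 members whose own values are not reported here.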

Additional observations from a re-analysis of the deposited data

How the results depend on the processing

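Counts of members called stayed within 1.5 times the values given under a q of 0.01, a 2-fold minimum, each repeated gene once, and without transcripts under 300 bases (added after the data were seen), and also under a minimum of 5 FPKM in both groups for gun4-1 and gun5-1; with that minimum, 10 members were called lower in gun1-1. The median log2 fold change was -1.04 in gun1-1 on the log2(FPKM + 1) scale and 1.41 in gun4-1 over tested members alone. The median of the nuclear-polymerase group minus that of the other members was -0.24 in gun1-1 and 1.42 in gun4-1 with rpoB, rpoC1 and rpoC2 alone, 0.061 in gun1-1 with ycf1 added to the group, and 0.66 in gun4-1 and 0.54 in gun5-1 on the log2(FPKM + 1) scale. With the ribosomal protein operon left out of the other members, also chosen after the data were seen, it was -0.082, 0.14 and 0.18 in gun1-1, gun4-1 and gun5-1. This alternative changes which genes make up the other group. The 7 described genes of the operon left out had medians of -1.67, 0.71 and 1.14 in gun1-1, gun4-1 and gun5-1. At an adjusted p under 0.01 by the normal test, 0 members differed between gun5-1 and gun4-1, where 4 had an unadjusted p under 0.05. Centring turned rpl33 in gun5-1, which did not pass, to 0.012. For single members, 5 of 61 calls against Col-0 were lost at q under 0.01 and 3 of 37 between mutants at an adjusted p under 0.01, and 1 was gained with the SE from the statistic alone; the cause was not tested. No paired analysis was possible because the tables hold group values with no replicate columns, and leaving out a replicate could not be run for the same reason. The unknown depth limits the members listed near 0 most.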
